A study of Mus musculus with 16 samples.

Results

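The transcripts described here encode the last stretch of the mitochondrial respiratory chain: complex III, cytochrome c, complex IV and ATP synthase. They were the protein-coding genes of the deposited count table whose names began with Uqcr, with Atp5 or with Cox followed by a digit of 4 to 8, together with Cyc1, Cycs and the mitochondrially encoded CYTB, COX1, COX2, COX3, ATP6 and ATP8. The rule used names alone and no measured value. It found 50 genes among the 24371 genes of the table, of which 17627 were labelled protein coding. Complex III had 10 members, cytochrome c had 1, complex IV had 20 and ATP synthase had 19. Of the 50, 44 are encoded in the nucleus and 6 in mitochondrial DNA. The table uses older symbols for ATP synthase, so that Atp5a1 is the alpha subunit now called Atp5f1a, Atp5b the beta subunit, and Atp5g1, Atp5g2 and Atp5g3 the genes of the c subunit.

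Complex III takes electrons from ubiquinol and hands them to cytochrome c, a small soluble carrier, which delivers them to complex IV, where oxygen is reduced to water. Complexes III and IV move protons out of the matrix, and ATP synthase lets them back in through a ring of c subunits whose turning drives ATP formation in the catalytic head. Cytochrome b of complex III, the catalytic core of complex IV and part of the membrane sector of ATP synthase are encoded in mitochondrial DNA. The other subunits are encoded in the nucleus. Heart muscle lives on oxidative metabolism, carries these complexes at high density and uses muscle isoforms of several complex IV subunits.

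There were 16 mouse heart samples in 4 groups of 4. All groups shared a heart failure with preserved ejection fraction (HFpEF) model of high-fat diet plus L-NAME, which blocks nitric oxide synthesis, kept up for 12 weeks. Hearts labelled Myh6Cre Gpr91fl/fl (Cre hearts) carry a Cre recombinase under a cardiomyocyte promoter and floxed alleles of Gpr91, the succinate receptor gene also called Sucnr1. Hearts labelled Gpr91fl/fl (floxed hearts) carry the floxed alleles with no Cre named. The groups were Cre hearts given succinate, Cre hearts not given succinate, floxed hearts given succinate and floxed hearts not given succinate. No group with Cre and without floxed alleles, and none without the HFpEF model, was analysed here. Age, sex and the dose of succinate are not stated in the labels. Whether each sample is a different animal is not stated in the labels, and a p-value then covers only the spread among these 16 samples, which may be technical.

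Library totals ran between 27835235 and 34700996 counts, and 3 counts, taken as the floor, corresponded to 0.0865 to 0.108 CPM, the count divided by the library total and scaled to a common size. Floor values cover counting error only. Sucnr1 had 2 to 21 counts per library in Cre hearts and 0 to 7 counts in floxed hearts, too few to pass the filter for testing, so the targeted gene gives no check of the genotype labels. Cardiomyocyte markers were abundant, with Myh6 at 13292 to 26988 CPM, while of the 7 atrial markers Myl7, Sln, Bmp10 and Fgf12 stayed at or below 0.359, 0.0602, 0.262 and 0.302 CPM. The other 3 were higher, with Nppa, the natriuretic peptide gene that stressed ventricles also express, at 63.4 to 1757 CPM, Dkk3 at 0.845 to 9.40 CPM and Myl4 at 0.634 to 2.73 CPM. Whether atria were part of the samples is not stated in the labels. Of 6 genes taken as markers of brown fat, another tissue rich in these complexes, Ucp1 was at 0 in 13 and Elovl3 in 12 of the 16 libraries. Cidea measured 34.8 to 48.4 CPM, Prdm16 10.5 to 19.9 CPM, Dio2 0.431 to 4.85 CPM and Cpt1b 1.27 to 3.32 CPM. The latter genes need not be confined to brown fat, so their levels do not measure its presence. In bulk tissue, fewer cells of a type and less RNA per cell cannot be told apart.

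Together the 50 members took 18.4% to 21.3% of all counts of a library, most of it from the mitochondrial members with 15.1% to 18.2%. The 44 nuclear members took 2.53% to 3.99%. Levels of different genes are compared here in the deposited FPKM, which divides by gene length. COX1, the subunit of complex IV that holds the oxygen-reducing centre, averaged 72392 FPKM over the 16 libraries, and CYTB, the quinone-oxidising cytochrome b of complex III, averaged 44058 FPKM. The other mitochondrial members were far below them. COX2, which receives electrons from cytochrome c, averaged 1586 FPKM, COX3 1330.4 FPKM, the proton channel subunit ATP6 881 FPKM and the short ATP8 26.4 FPKM.

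The gap between COX1 and CYTB on one side and COX2, COX3 and ATP6 on the other went with shared sequence. ATP8, a gene of 204 bases and the lowest mitochondrial member at 26.4 FPKM, did not follow this pattern. Of the stretches of 100 bases in COX3, 99.9% occur in another annotated transcript (most in Gm28437), and the share was 99.5% for COX2 and 99.5% for ATP6, against 30.8% for COX1, 0 for CYTB and 0 for ATP8. The handling of reads that match several genes is not stated in the labels or files, so the levels of COX2, COX3 and ATP6 are uncertain, and the part of such reads in them was not tested. Among nuclear members, Atp5l shared 69.0% of its stretches, Atp5g2 34.7%, Atp5o 26.8%, Cycs 24.7% and Uqcrc2 21.5%, the last with its neighbour Pdzd9. Atp5md and Atp5pb were not matched by name in the annotation used for this count.

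Among nuclear members the highest level per length was that of Atp5b, the catalytic beta subunit, at 2612 FPKM, followed by Cox4i1, the common form of subunit 4 of complex IV, at 2193 FPKM. Apart from Cox4i2, Cox6b2 and Cox7b2, the lowest nuclear members were Cox6a1 at 128 FPKM and Cycs at 150.5 FPKM, as the plot of levels shows. In complex III the lowest per length was Uqcrq, a small accessory subunit, at 331 FPKM. Such ranks rest on the length in the deposited FPKM, 3154 bases for Cycs, 1525 for Uqcrq and 497 for Uqcr10. In CPM, Uqcrq averaged 504, above Uqcr10 at 295 CPM. In complex IV the isoforms set the range. Cox4i2, a form of subunit 4 known from lung, stood at 12.5 FPKM, Cox6b2, a form of subunit 6b best known from testis, at 2.69 FPKM, and Cox7b2 at 0.217 FPKM. Cox7b2 had 1 to 9 counts per library and was the only member that failed the filter on low counts, which left 49 tested.

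**Figure D1:**
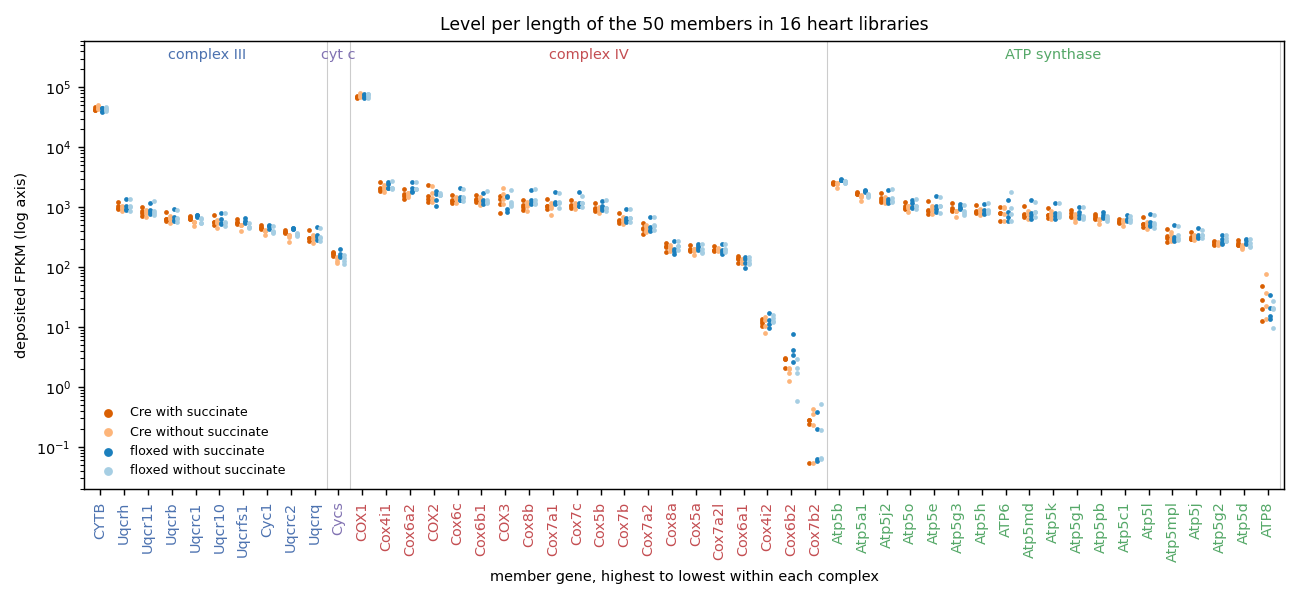
Deposited FPKM (log axis) of each of the 50 members in each of the 16 libraries, ordered within complex III, cytochrome c, complex IV and ATP synthase by mean level, with Cre hearts left of floxed hearts and succinate left of none. CYTB and COX1 stand above all others at 44058 and 72392 FPKM on average, and Cox7b2 is lowest at 0.217 FPKM.

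Transcripts of some members were higher with succinate when averaged over genotypes, in a share near that of all tested genes. They encode the nuclear catalytic and core subunits of complex III, cytochrome c, Cox6b2 and the ATP synthase alpha subunit. Averaged over genotypes, 7 of the 49 tested members rose and none fell at an adjusted p under 0.05 (edgeR quasi-likelihood test, Benjamini-Hochberg over 14607 genes). The 7 were Uqcrc1, Uqcrc2, Uqcrfs1, Cyc1, Cycs, Cox6b2 and Atp5a1. They made up 14.3% of the tested members, against 10.6% of all tested genes that rose and 19.0% that changed in either direction, so the share of members called lay near the background. Without Cox6b2, the increases were 1.21-fold to 1.29-fold. The median log2 fold change of the 49 members was 0.09, beside 0.01 for all tested genes, and 42 of the 49 estimates were above 0.

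In floxed hearts alone 2 of 49 members rose and none fell, or 4.08%, where 7.48% of all tested genes rose and 13.1% changed in either direction. They were Uqcrc2, with a log2 fold change of 0.38 ± 0.11 (SE) and an adjusted p of 0.0293, and Cox6b2, with 1.31 ± 0.38 and 0.0293. This count turned on single libraries: it was 0 when replicate 1, 2 or 3 was left out of the untreated floxed group and when replicate 1 or 4 was left out of the succinate-treated floxed group. It was 1 with treated floxed replicate 3 left out, 6 with untreated floxed replicate 4 left out and 5 with untreated Cre replicate 1 left out. Over all tested genes the count in either direction was 1917, and 1018 to 2106 as single libraries were left out. In Cre hearts alone no member passed in edgeR, where 0.602% of all tested genes rose and 0.917% changed in either direction. There, DESeq2 called 1 member, Uqcrc1, among 488 of all tested genes, and limma voom called 0 members among 150. The succinate effect was not shown to differ between genotypes: the interaction called 0 of 49 members and 0.00% of all tested genes in edgeR, no member had an unadjusted interaction p under 0.05, and DESeq2 and limma voom called 0 members. The interaction estimates (succinate effect in Cre minus that in floxed hearts) of smallest p within complex III, complex IV and ATP synthase were 0.10 ± 0.23 for Uqcrh, -0.63 ± 0.54 for Cox6b2 and -0.56 ± 0.73 for ATP8 (SE), with adjusted p-values of 0.981, 0.972 and 0.973. Of the 43 tested nuclear members 8 had an interaction estimate below 0, with a median of 0.06. Without untreated floxed replicate 4 and untreated Cre replicate 1, a setting added after seeing the data, 41 of 43 were below 0 with a median of -0.18, and the interaction again called 0 members, with 7 called among all genes. Leaving out these libraries, the highest untreated floxed and the lowest untreated Cre library for these members, had to lower these estimates.

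**Figure D2:**
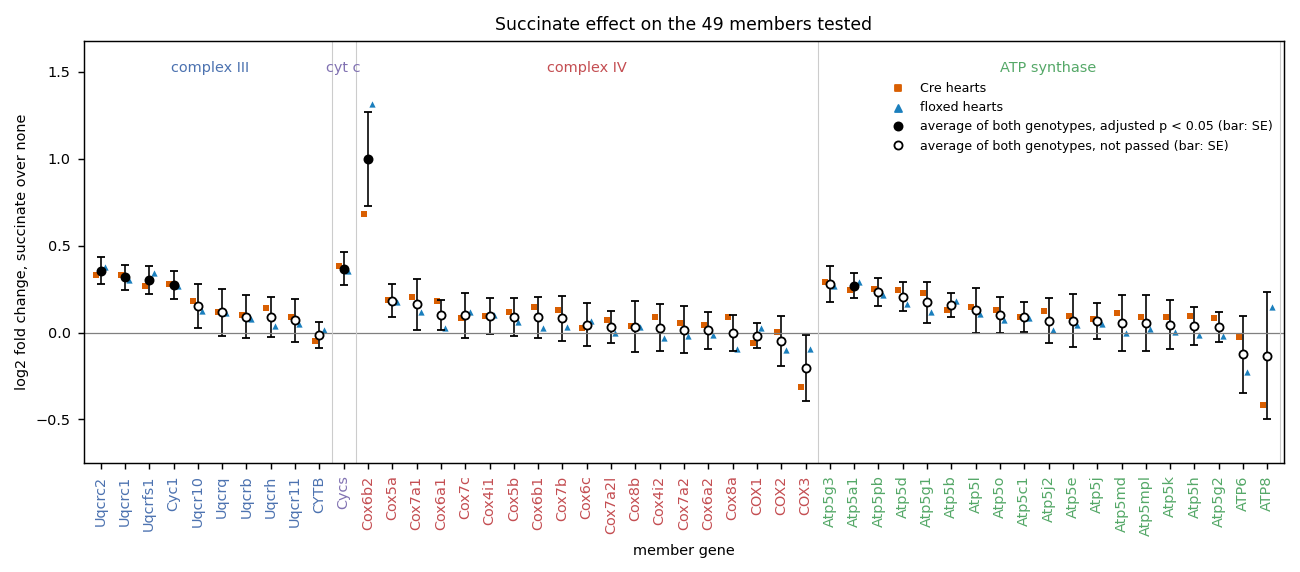
log2 fold change of succinate over no succinate for the 49 tested members, ordered by size within each complex. Circles give the average over genotypes with its SE (filled where the adjusted p was under 0.05), squares the Cre hearts and triangles the floxed hearts. The filled circles are 4 of complex III, Cycs, Cox6b2 and Atp5a1.

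In complex III the members that rose were the 4 large nuclear subunits. Uqcrc1 and Uqcrc2 are the core proteins on the matrix side, Uqcrfs1 is the Rieske iron-sulfur protein and Cyc1 is cytochrome c1, which passes the electron on. Uqcrc2 measured 707, 736, 712 and 779 CPM in Cre hearts given succinate, against 490.2, 659, 640.4 and 597 CPM in untreated Cre hearts. In floxed hearts given succinate it measured 809, 801, 845 and 859 CPM, against 621, 662, 648 and 709 CPM in untreated floxed hearts. In both genotypes every heart given succinate lay above every untreated one. The members that passed were picked by their test on these same libraries, so such separation is no further support. Averaged over genotypes, the log2 fold change of Uqcrc2 was 0.36 ± 0.08 (SE, adjusted p = 0.00403).

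Uqcrc1 measured 1066, 1165, 1061 and 1138 CPM in Cre hearts given succinate, against 799, 946, 947 and 922 CPM in untreated Cre hearts. Its values were 1138, 1206, 1238 and 1160.5 CPM in floxed hearts given succinate, against 917, 1048, 918 and 1088 CPM in untreated floxed hearts. Again the groups did not overlap in either genotype, and the averaged log2 fold change was 0.32 ± 0.07 (SE, adjusted p = 0.00497). The lowest of the 16 libraries was replicate 1 of the untreated Cre hearts. Uqcrfs1 measured 683, 822, 736 and 727 CPM in Cre hearts given succinate, against 534, 662, 669.6 and 657 CPM in untreated Cre hearts. Its values were 725, 769.6, 757 and 854 CPM in floxed hearts given succinate, against 587, 616, 622 and 715 CPM in untreated floxed hearts. The Rieske protein transcript also kept treated and untreated hearts apart in both genotypes, with a log2 fold change of 0.30 ± 0.08 (SE, adjusted p = 0.0135).

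Cyc1 measured 667, 787, 692 and 729 CPM in Cre hearts given succinate, against 524, 652, 625 and 625 CPM in untreated Cre hearts. In floxed hearts given succinate it measured 684, 744, 760.4 and 771 CPM, against 586, 624, 589 and 747 CPM in untreated floxed hearts. Treated and untreated hearts overlapped in the floxed genotype only through replicate 4 of the untreated hearts. The averaged log2 fold change of Cyc1 was 0.27 ± 0.08 (SE, adjusted p = 0.0244), and its adjusted p lay between 0.00719 and 0.0711 over 24 other settings, under 0.05 in 18 of them. The 6 settings in which it missed left out replicate 1 of the untreated Cre group, replicate 2 of the treated Cre group, replicate 3 of the treated floxed group, or replicate 1, 2 or 3 of the untreated floxed group. The 4 large nuclear subunits had a median log2 fold change of 0.31. The 5 small accessory subunits, Uqcrb, Uqcrh, Uqcrq, Uqcr10 and Uqcr11, which surround the core, had averaged log2 fold changes of 0.07 to 0.15 and none passed. CYTB, the mitochondrial subunit at the heart of the same complex, averaged 50176 ± 2942 CPM in Cre hearts given succinate and 53190.3 ± 3636 CPM in untreated Cre hearts (SD, n = 4 each). In floxed hearts it averaged 48474 ± 3740.1 CPM with succinate and 49768 ± 2509 CPM without (SD, n = 4 each), and its averaged log2 fold change was -0.02 ± 0.07 (SE, adjusted p = 0.905).

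Cycs, the somatic cytochrome c that carries electrons between complexes III and IV, also rose. Cycs measured 475, 568, 523 and 552 CPM in Cre hearts given succinate, against 367, 462, 444 and 396 CPM in untreated Cre hearts. Its values were 467, 532, 482 and 622 CPM in floxed hearts given succinate, against 356, 444, 398 and 506 CPM in untreated floxed hearts. In Cre hearts treated and untreated hearts did not overlap, while in floxed hearts the untreated replicate 4 lay above 2 of the treated hearts. The averaged log2 fold change was 0.37 ± 0.09 (SE, adjusted p = 0.0111). Because 24.7% of its stretches of 100 bases occur elsewhere, mostly in Gm10053, reads of Cycs and of its copies may have been split or dropped in counting.

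**Figure D3:**
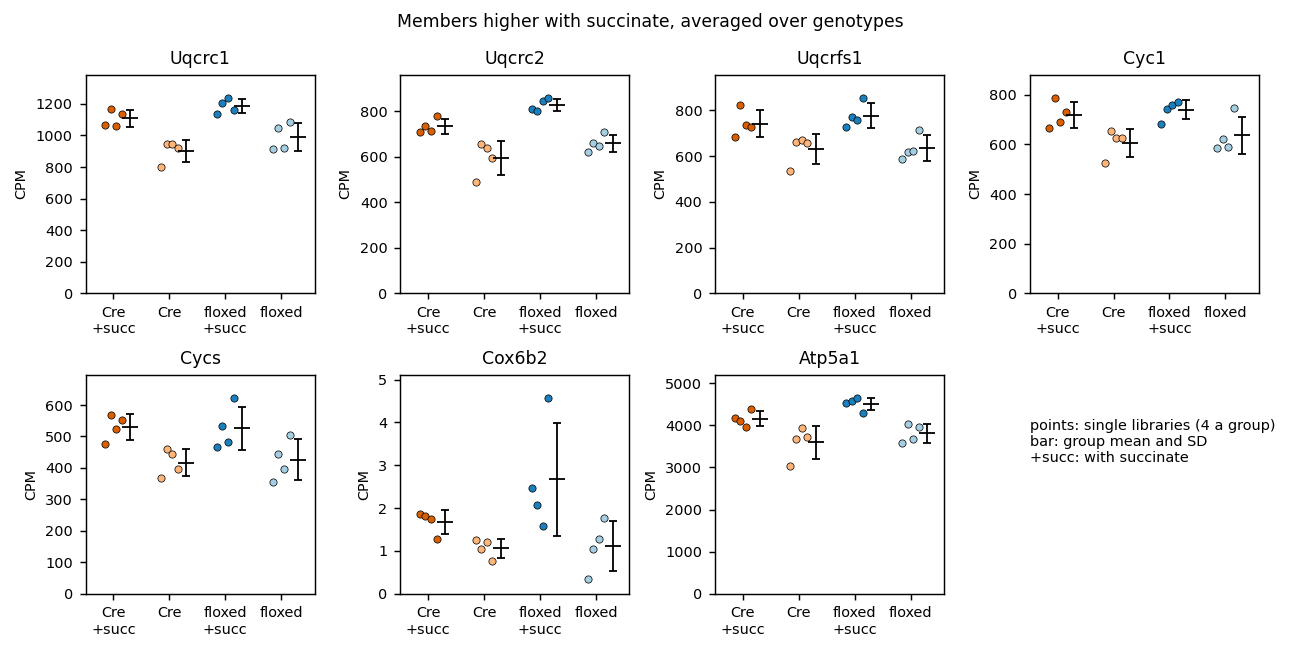
CPM per library of the 7 members that rose with succinate on average, with Cre hearts given succinate, untreated Cre hearts, floxed hearts given succinate and untreated floxed hearts from left to right. Points are libraries and bars the mean and SD of 4, and for Uqcrc1, Uqcrc2, Uqcrfs1 and Atp5a1 treated and untreated hearts do not overlap in either genotype. All 7 were picked by their test on the same libraries, so the separation is no further support.

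Of the 19 tested members of complex IV 1 rose, Cox6b2, and 18 did not pass, with a median log2 fold change of 0.05. Cox6b2 measured 1.86, 1.80, 1.75 and 1.27 CPM in Cre hearts given succinate, against 1.25, 1.05, 1.20 and 0.756 CPM in untreated Cre hearts. In floxed hearts given succinate it measured 2.48, 2.06, 1.58 and 4.56 CPM, against 0.351, 1.04, 1.28 and 1.77 CPM in untreated floxed hearts. These levels rested on 10 to 127 counts per library. In the Cre genotype the lowest treated heart lay just above the highest untreated one, and in the floxed genotype treated and untreated hearts overlapped. The averaged log2 fold change of Cox6b2 was 1.0 ± 0.27 (SE, adjusted p = 0.0151). Its abundant counterpart Cox6b1 had 0.09 ± 0.12 (SE, adjusted p = 0.648).

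Among the mitochondrial core subunits of complex IV, COX1 averaged 107529 ± 2539 CPM in Cre hearts given succinate and 115186 ± 7683 CPM in untreated Cre hearts, and 111422 ± 6469 CPM in floxed hearts given succinate and 113244 ± 7482 CPM in untreated floxed hearts (SD, n = 4 each). The averaged log2 fold changes were -0.02 ± 0.07 for COX1, -0.05 ± 0.14 for COX2 and -0.20 ± 0.19 for COX3 (SE), with adjusted p-values of 0.893, 0.846 and 0.486. Of the other nuclear members, Cox5a, a subunit next to the core, had the largest estimate at 0.18 ± 0.09 (SE, adjusted p = 0.191), Cox4i1 had 0.10 ± 0.10 and its isoform Cox4i2 0.03 ± 0.14. The 6 mitochondrial members, all of them, had averaged estimates below 0, from -0.20 to -0.02, and none passed.

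In ATP synthase, Atp5a1 and Atp5b alternate in the catalytic head, where ATP is made. Atp5a1 measured 4168, 4117, 3972 and 4399.6 CPM in Cre hearts given succinate, against 3034, 3669, 3949 and 3733 CPM in untreated Cre hearts. Its values were 4537, 4569, 4645 and 4307 CPM in floxed hearts given succinate, against 3574, 4041, 3683 and 3954 CPM in untreated floxed hearts. Treated hearts lay above untreated hearts without overlap in both genotypes, and the averaged log2 fold change was 0.27 ± 0.07 (SE, adjusted p = 0.0163). Atp5b, its partner, averaged 4797 ± 171 CPM in Cre hearts given succinate and 4491 ± 394 CPM in untreated Cre hearts, and 5414 ± 90.7 CPM in floxed hearts given succinate and 4931 ± 223 CPM in untreated floxed hearts (SD, n = 4 each). Its log2 fold change of 0.16 ± 0.07 (SE) did not pass (adjusted p = 0.116).

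Several other parts of the enzyme had estimates of similar size that missed the threshold. They were Atp5pb of the peripheral stalk, which holds the head still, with 0.23 ± 0.08 (SE, adjusted p = 0.0502), Atp5g3 of the c ring with 0.28 ± 0.10 (adjusted p = 0.0644) and Atp5d of the turning central stalk with 0.21 ± 0.08 (adjusted p = 0.0974). DESeq2 called Atp5pb and Atp5g3, and limma voom called all 3. The 7 membrane members, which include ATP6 and ATP8, had a median of 0.05 and none passed. ATP6 had -0.13 ± 0.22 and ATP8 -0.13 ± 0.36 (SE), with adjusted p-values of 0.730 and 0.836. Atpif1, the inhibitor protein that binds the enzyme head and is no subunit, had an averaged log2 fold change of -0.21 ± 0.12 (SE, adjusted p = 0.250).

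Markers of cell types moved with succinate as well. Summed over the 8 cardiomyocyte markers, Cre hearts given succinate had 53424 to 60408 CPM and untreated Cre hearts 45723 to 51239 CPM, with no overlap. Floxed hearts given succinate had 53776 to 62432 CPM and untreated floxed hearts 47029.8 to 54821 CPM, which overlap. Of the 8 markers 2 rose on average, the myosin heavy chain Myh6 with a log2 fold change of 0.63 ± 0.09 and the calcium release channel Ryr2 with 0.60 ± 0.14 (SE). The others did not pass, with estimates from -0.05 (Myl2) to 0.22 (Tnni3). Myh6, at 19588 CPM on average over the 16 libraries, was the largest part of the cardiomyocyte sum. Of 5 macrophage markers 2 fell, Adgre1 with -0.68 ± 0.15 and Csf1r with -0.37 ± 0.09 (SE), and the sum of the 5 was 213 to 380.4 CPM in treated and 317 to 542 CPM in untreated Cre hearts, and 168 to 295 CPM in treated and 284 to 385 CPM in untreated floxed hearts. Of the 7 atrial markers 3 were tested and 1 fell, Nppa with -1.09 ± 0.30 (adjusted p = 0.0226), of the 6 brown fat markers 4 were tested and 1 fell, Dio2 with -1.07 ± 0.34 (adjusted p = 0.0371), and of 5 endothelial markers 1 rose, the fatty acid carrier Fabp4 with 0.64 ± 0.20 (adjusted p = 0.0336). None of the tested fibroblast (6), skeletal muscle fibre (5) or smooth muscle and pericyte (5) markers passed in edgeR. In this comparison 10.6% of all tested genes rose and 8.45% fell. The part of these shifts in the values of the complex III, cytochrome c and ATP synthase genes was not tested.

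The nuclear members were high or low together from library to library. Over the 41 nuclear members other than Cox4i2, Cox6b2 and Cox7b2, all 41 lay above their own group mean in replicate 2 of the Cre hearts given succinate, in replicate 2 of the untreated Cre hearts and in replicate 4 of the untreated floxed hearts, and 40 of 41 did in replicate 4 of the floxed hearts given succinate. The medians of these deviations were 0.31, 0.18, 0.39 and 0.38 on the log2 scale. In replicate 1 of the untreated Cre hearts 40 of 41 lay below the group mean, with a median of -0.30. Within a group the median coefficient of variation of these members was 16.3% in Cre hearts given succinate, 14.1% in untreated Cre hearts, 19.4% in floxed hearts given succinate and 20.1% in untreated floxed hearts, against 9.45% to 9.98% for the 8268 genes above 10 CPM. Without the untreated floxed replicate 4 and the untreated Cre replicate 1 together, a setting chosen after these libraries had been seen, 8 members rose on average, the 7 above and Atp5g3, and 8 rose in floxed hearts. Over all tested genes that setting called 2004 on average and 1912 in floxed hearts, in either direction.

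Across these 41 members the size of the averaged succinate estimate went with gene length. Length here is the single value per gene behind the deposited FPKM, which may not be that of the expressed transcript. Cox5a had 3153 bases, while its coding transcripts in the annotation used for shared sequence held 596 different stretches of 50 bases. The log2 fold change correlated with log2 length at a Pearson r of 0.68 and a Spearman rho of 0.59 (n = 41 genes), against 0.07 and 0.08 over all 14607 tested genes. Genes share libraries and are not independent, so these are descriptions. The 16 members of at least 1000 bases had a median log2 fold change of 0.22 and the 25 shorter members a median of 0.07. The medians of all tested genes were -0.01 for the 7162 genes of 1000 to 4000 bases and -0.04 for the 819 genes under 1000 bases. In the same libraries the correlation was 0.61 in Cre hearts and 0.70 in floxed hearts. The nuclear catalytic and core subunits of complex III and the head of ATP synthase are among the longer members, and the part of either in the succinate estimates was not tested.

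**Figure D4:**
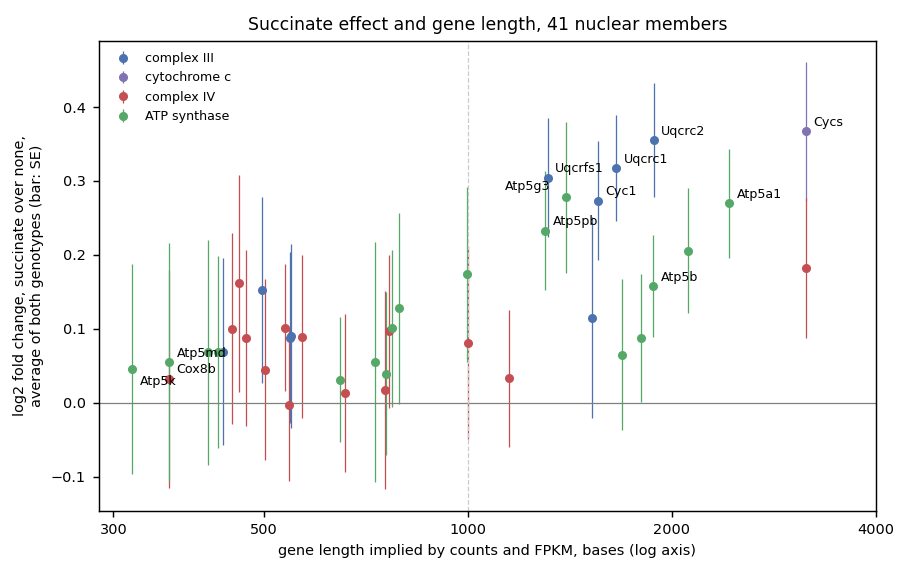
Averaged succinate log2 fold change (bar: SE) against gene length in bases (log axis) for 41 nuclear members, coloured by complex, with a dashed line at 1000 bases. Uqcrc2, Uqcrc1, Uqcrfs1, Cyc1, Cycs and Atp5a1, which passed, all lie right of the line, where the median was 0.22, against 0.07 left of it.

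Transcription of these subunits is known to be coordinated by nuclear respiratory factors and partner factors, so the region around the start of each member was read for their motifs. RefSeq windows of 250 bases before to 50 after the start (build GRCm38.p6, an older build than the GRCm39 used for counting) were found for 34 of the 50 members. Of the members that rose with succinate on average, Uqcrc2, Cyc1 and Atp5a1 had no window and were not read. The NRF1 motif GCATGCGC or its reverse complement GCGCATGC lay in 7 of the 34 genes (20.6%), against 3.93% of 17491 protein-coding genes. The GABP motif CCGGAAG or CTTCCGG lay in 11 (32.4%), against 12.9%. The palindromic CREB motif TGACGTCA lay in 2 (5.88%, against 2.54%), the ERR motif TCAAGGTCA or its reverse complement in 1 (2.94%, against 0.377%) and the YY1 motif AAGATGGCG or its reverse complement in 2 (5.88%, against 2.14%). The PPAR direct repeat lay in none of the 34 (0.0572% of protein-coding genes). The GABP and YY1 matches all fell on members that did not pass with succinate on average. Cox6b2, which rose, had a window with none of these motifs. A match describes letters and is not evidence of binding.

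The NRF1 matches fell on members that rose with succinate (Cycs and Uqcrc1) and on members that did not pass (Atp5g2, Atp5k, Atp5l, Cox6a1 and Uqcr11). Those of Cycs, Uqcrc1, Uqcr11 and Atp5g2 are shown with the motif in capitals, 5′ to 3′ on the strand of the gene. In Uqcrc1 and Atp5g2 the motif is read on both strands at once as GCGCATGCGC. They lie at chr6:50566601-50566650 on the minus strand, chr9:108936668-108936697 on the plus strand, chr10:80406807-80406836 on the minus strand and chr15:102671060-102671109 on the minus strand.
Cycs: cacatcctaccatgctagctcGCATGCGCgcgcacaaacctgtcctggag
Uqcrc1: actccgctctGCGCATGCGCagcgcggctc
Uqcr11: atcgccttcacGCATGCGCtatacgtctgc
Atp5g2: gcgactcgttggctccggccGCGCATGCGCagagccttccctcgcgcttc

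The CREB motif was found in Cycs and in Uqcrfs1, which both rose on average, and the ERR motif, read here on the other strand as TGACCTTGA, in Atp5g3, which missed the threshold. They are shown as the sole matches to these motifs, at chr6:50566710-50566759 on the minus strand, chr13:30545317-30545366 on the minus strand and chr2:73911350-73911399 on the minus strand.
Cycs: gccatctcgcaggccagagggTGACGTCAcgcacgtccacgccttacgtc
Uqcrfs1: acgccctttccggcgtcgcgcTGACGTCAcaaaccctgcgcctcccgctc
Atp5g3: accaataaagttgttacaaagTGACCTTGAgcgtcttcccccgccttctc

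Between genotypes no member passed, and the estimates of the nuclear members lay mostly below 0. Without succinate, 43 of the 43 tested nuclear members had a lower estimate in Cre than in floxed hearts, with a median log2 difference of -0.17 (all tested genes 0.00), and with succinate 40 of 43 did, with a median of -0.13 (all tested genes -0.01). The members are high or low together between libraries, so these counts are not 43 independent results. Without the high untreated floxed replicate 4 and the low untreated Cre replicate 1, a setting added after seeing the data, 12 of 43 estimates were below 0 without succinate and the median was 0.06, while 40 of 43 and a median of -0.13 remained with succinate. For these members they were the highest untreated floxed and the lowest untreated Cre library, so leaving both out had to raise the estimates. What the lean rested on was not tested. By edgeR 0 of 49 members passed without succinate, where 0.110% of all genes did. With succinate 0 passed, where 0.691% of all genes did. DESeq2 and limma voom called 0 members in both. Among all genes they called 90 and 22 without succinate and 327 and 198 with it. Averaged over succinate, edgeR called 0 where 1.88% of all genes passed. DESeq2 and limma voom each called 1 member, Cox6a2, among 603 and 421 of all genes.

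Averaged over succinate, the 4 lowest estimates among members were those of the complex IV isoforms Cox8b, Cox6a2, Cox6b2 and Cox7a1. For Cox6b2, a form known from testis, the estimate was -0.40 ± 0.27 averaged and -0.72 ± 0.37 with succinate (SE), with adjusted p-values of 0.552 and 0.491. Cox6a2, the muscle form of subunit 6a, measured 982, 1153, 1116 and 1068 CPM in untreated Cre hearts, against 1319.7, 1337, 1350.3 and 1746 CPM in untreated floxed hearts. With succinate it measured 1001, 1303, 908 and 1109 CPM in Cre hearts, against 1169, 1376, 1250.0 and 1705 CPM in floxed hearts. The untreated groups did not overlap and the treated groups did. The averaged log2 difference was -0.41 ± 0.11 (SE), which missed the threshold in edgeR (adjusted p = 0.0591) and passed in 5 of 24 other settings, among them DESeq2 and the one without replicate 2 of the Cre hearts given succinate. The muscle forms Cox8b and Cox7a1 had -0.41 ± 0.15 and -0.35 ± 0.15 (SE), with adjusted p-values of 0.186 and 0.284, and in both the groups overlapped with and without succinate. In ATP synthase the estimates of smallest p without succinate were those of Atp5g2 of the c ring, with -0.29 ± 0.12 (SE, adjusted p = 0.505), and of ATP8, with 0.93 ± 0.52 (SE, adjusted p = 0.637).

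Ratios within a library show the isoform balance per length without regard to scaling. The muscle form Cox6a2 exceeded the general form Cox6a1 by a ratio of 12.0 ± 1.47 in Cre hearts given succinate and 13.3 ± 1.52 in untreated Cre hearts, and 16.8 ± 1.41 in floxed hearts given succinate and 17.2 ± 1.46 in untreated floxed hearts (SD, n = 4 each). The 8 Cre libraries ran from 9.86 to 14.5 and the 8 floxed libraries from 15.2 to 18.5, without overlap. Cox8b over Cox8a was 4.91 ± 0.257 and 5.10 ± 0.769 in treated and untreated Cre hearts, and 6.64 ± 0.318 and 6.05 ± 0.916 in treated and untreated floxed hearts (SD, n = 4 each), and here the untreated groups overlapped. Cox7a1 over Cox7a2 was 2.48 ± 0.114 and 2.22 ± 0.176 in treated and untreated Cre hearts, and 2.72 ± 0.132 and 2.45 ± 0.139 in treated and untreated floxed hearts (SD, n = 4 each). A ratio shows that 2 isoforms differ in their change and not which of them moved, and these ratios of members were not tested.

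Other muscle genes were higher in Cre hearts: of the 7 skeletal muscle fibre markers matched, 5 were tested and 4 rose averaged over succinate, Acta1, Atp2a1, Tnni2 and Tnnt3. The sum of the 7 was 872 to 1239 CPM in treated and 412 to 1416 CPM in untreated Cre hearts, and 202 to 395 CPM in treated and 303 to 599 CPM in untreated floxed hearts, nearly all of it Acta1. The defining fast myosins Myh1 and Myh2 were near 0, at or below 0.196 and 0.104 CPM. Of the 3 tested atrial markers 2, Nppa with a log2 difference of 2.30 ± 0.31 (SE, adjusted p = 0.00135) and Dkk3 with 1.25 ± 0.26 (SE, adjusted p = 0.0183) were higher in Cre hearts. The sum of the 7 atrial markers was 449.8 to 943 CPM in treated and 361 to 1769 CPM in untreated Cre hearts, and 65.8 to 93.2 CPM in treated and 174 to 471 CPM in untreated floxed hearts, nearly all of it Nppa. The part of these muscle and atrial genes in the isoform ratios was not tested.

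**Figure D5:**
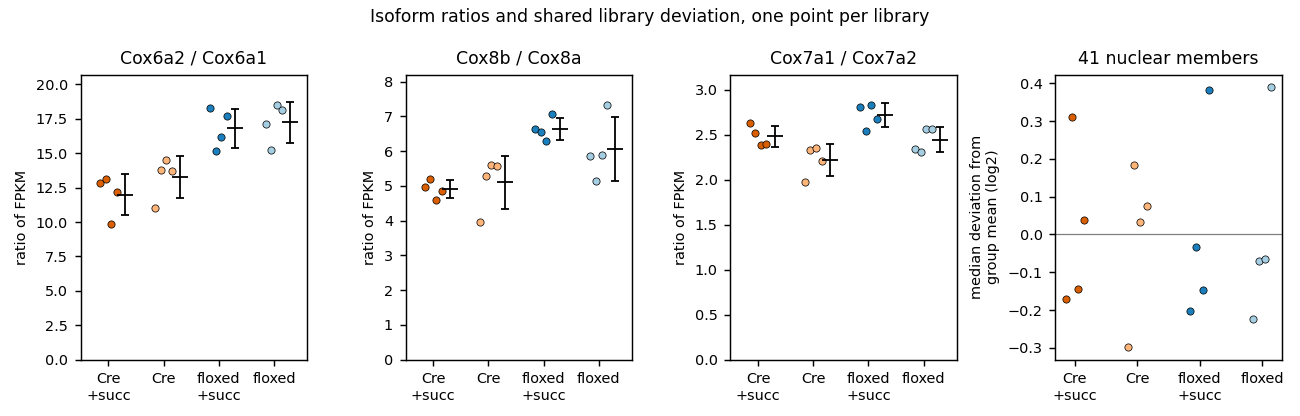
Ratio of FPKM of the muscle to the general isoform (3 panels; points are libraries, bars the mean and SD of 4) and the median log2 deviation of 41 nuclear members from their group mean (right panel), with Cre hearts left of floxed hearts. Cox6a2 over Cox6a1 runs from 9.86 to 14.5 in Cre hearts and from 15.2 to 18.5 in floxed hearts, and the deviation reaches 0.39 and -0.30 in single libraries.

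The remaining isoforms are given as levels. Cox4i1 exceeded Cox4i2 179-fold per length on average over the 16 libraries, with a range of 146.7 to 261. Atp5g1, Atp5g2 and Atp5g3 encode the same mature c subunit behind different import signals. They made up 38.6%, 14.0% and 47.4% of their summed FPKM on average. The share of Atp5g2 was 12.9 ± 0.812% in treated and 14.3 ± 0.793% in untreated Cre hearts, and 13.4 ± 0.341% in treated and 15.5 ± 1.21% in untreated floxed hearts (SD, n = 4 each). Cox7a2l, which takes part in supercomplex assembly, had an averaged succinate log2 fold change of 0.03 ± 0.09 (SE, adjusted p = 0.839).

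The balance of the 2 genomes was read as the summed CPM of the mitochondrial over that of the nuclear members of a complex. For complex III it was 9.32 ± 0.531 in treated and 11.3 ± 0.730 in untreated Cre hearts, and 8.48 ± 0.990 in treated and 9.91 ± 1.56 in untreated floxed hearts (SD, n = 4 each). Within Cre hearts the treated and untreated ranges, 8.97 to 10.1 and 10.5 to 12.3, did not overlap, and within floxed hearts they did. For complex IV it was 13.8 ± 1.66 and 15.3 ± 0.770 in treated and untreated Cre hearts, and 12.8 ± 2.15 and 13.1 ± 2.15 in treated and untreated floxed hearts (SD, n = 4 each). These are CPM without division by length, and the COX2 and COX3 part carries the shared-sequence limit given above.

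Genes that build and serve the complexes were counted beside them, with log2 fold changes and SE averaged over genotypes. Of 19 tested genes of mitochondrial DNA expression 5 rose and none fell: Mterf2 (0.33 ± 0.07) and Mterf4 (0.37 ± 0.07), members of the MTERF family, Polg2 (0.62 ± 0.15), the accessory subunit of the mitochondrial DNA polymerase, Lrpprc (0.32 ± 0.08), which stabilises mitochondrial messenger RNAs, and Tfb2m (0.17 ± 0.05), a factor that starts mitochondrial transcription. The 6 mitochondrial members had estimates below 0 and did not pass. Tfam, which packages mitochondrial DNA, had 0.10 ± 0.06 (adjusted p = 0.251). Of the 7 genes of ATP synthase assembly 2 rose, Atpaf1 (0.26 ± 0.06) and Atpaf2 (0.27 ± 0.06), the chaperones of the beta and alpha subunits.

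Assembly genes of complex IV were mixed: of 27 tested, 3 rose, Tmem177 (0.27 ± 0.08), Higd1a (0.31 ± 0.10) and Cox15 (0.22 ± 0.07), and 2 fell, Cox19 (-0.51 ± 0.07) and Sco1 (-0.26 ± 0.07). Cox15 takes part in making the heme a of COX1, while Cox19 and Sco1 serve the delivery of copper. Cox19 also fell in floxed hearts alone, with -0.64 ± 0.10 (SE, adjusted p = 0.000860). Of 10 assembly genes of complex III 1 fell, Uqcc4 (-0.23 ± 0.06). Of 10 genes of ATP and ADP exchange and phosphate entry 2 rose, Ckmt2 (0.43 ± 0.10), the mitochondrial creatine kinase of muscle, and Slc25a3 (0.24 ± 0.07), the phosphate carrier. As before, 10.6% of all tested genes rose and 8.45% fell in this comparison.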

How the data were processed

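RNA from heart samples was sequenced. The tools named, per the submitters' processing notes, are HISAT2, HTSeq, fastp, DESeq2 and R 3.2.0, with GRCm39 as the build. Settings, strandedness and the handling of reads that match several genes are not given in the sources used here. The deposited table holds whole-number read counts per gene. The deposited FPKM, in another table by the authors, are equal to the count scaled by library total and 1 length per gene, which gave the lengths used here.

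Counts were analysed as deposited. CPM divides by the library total. The edgeR filter filterByExpr (minimum count 10) kept 14607 genes with at least 99.95% of each library's counts. TMM factors ran between 0.946 and 1.09. The robust quasi-likelihood F-test of edgeR 4.0.16, run in R 4.3.3, was fitted to all 16 libraries with 1 mean per group, which left 12 residual degrees of freedom, and p-values were adjusted over all tested genes by Benjamini-Hochberg to a threshold of 0.05. It gave 7 comparisons: succinate within each genotype and averaged, genotype with and without succinate and averaged, and the interaction. Those within a genotype or treatment share groups with one another. The fit was also run on simulated counts drawn independently for each gene. These lacked the shared library deviations of the nuclear members, so they give no error rate for those members. Alternatives used limma 3.58.1 and DESeq2 1.42.0. Every pair of replicates differed by more than sampling noise (chi-square over its degrees of freedom 10.7 to 57.8), and each was counted separately.

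Named with values were the members that passed in any comparison, the mitochondrial members, the 2 of smallest p per complex in 4 comparisons, isoforms, extremes of level and Atpif1. The members and lists were chosen with earlier results of these data known. The list genes Sco2, Pet117, Fastkd4, Lep and Myh4 and the isoform Cox8c had no matching row in the table used.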

Additional observations from a re-analysis of the deposited data

Results flagged for a closer look

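Each member was examined in each of the 4 groups for a library whose gap to its nearest neighbour took most of the group's range, 200 groups in all. Chance flags about 1 in 20 groups, and 5 of the 200 were flagged here, which is below that rate. In replicate 1 of the untreated Cre hearts, Uqcrfs1 was lowest at 533.92 CPM (nearest library 657 CPM), Uqcrc1 was lowest at 799.076 CPM (nearest 922 CPM) and Atp5g3 was lowest at 953.105 CPM (nearest 1196 CPM). In replicate 4 of the untreated floxed hearts, Cox6a2 was highest at 1745.83 CPM (nearest 1350.3 CPM). In replicate 4 of the floxed hearts given succinate, Cox7a1 was highest at 834.087 CPM (nearest 557 CPM). In these libraries 40, 41 and 40 of the 41 nuclear members examined lay on the same side of their group mean, by a median of -0.30, 0.39 and 0.38 on the log2 scale. Averaged over genotypes, Uqcrfs1 and Uqcrc1 rose with succinate also with the untreated Cre replicate 1 left out, and Atp5g3 passed neither with nor without it.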

How the results depend on the processing

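Averaged over genotypes, the number of members that rose with succinate was 7 and stayed between 6 and 10 in every alternative run (another normalisation, mitochondrial genes removed, no or a stricter filter, DESeq2, limma voom, each library left out), and 6 of the 7, all but Cyc1, passed in each of them. Over all tested genes, 2781 were called in this comparison in either direction, and 2004 to 3314 in the alternatives. A fit of only the groups compared gives no averaged value. In floxed hearts alone the count of 2 became 5 with DESeq2, 8 with limma voom, 1 when only the groups compared were fitted, 8 without the untreated floxed replicate 4 and untreated Cre replicate 1 (added after seeing the data), and 0 to 6 as single libraries were left out. Over all tested genes 1917 were called in floxed hearts, 2540 with DESeq2, 2958 with limma voom and 1636 when only the groups compared were fitted. That count was 1912 without those 2 libraries and 1018 to 2106 as single libraries were left out. In Cre hearts the count of 0 became 1 with DESeq2 and stayed at 0 as single libraries were left out. Over all tested genes 134 were called there, 488 with DESeq2 and 22 to 183 as single libraries were left out. For genotype averaged over succinate the count of 0 became 1 (Cox6a2) with no filter, 1 with DESeq2, 1 with limma voom and 0 to 1 as single libraries were left out. Over all tested genes it was 274, 282 with no filter, 603 with DESeq2, 421 with limma voom and 156 to 308 with single libraries left out. The cause of these changes was not tested. Values were also recomputed for single members and for the mitochondrial to nuclear ratios of complexes III and IV and ATP synthase. Of these, 795 stayed the same. For a member this means its side of the threshold, for a ratio a shift below the largest SD within a group. Another 29 passed only in the alternative and 18 only as reported above, and no estimate that was called reversed its sign. Over all tested genes the deviations of same-numbered samples correlated with r of -0.12 to 0.32, over 0.1 in 3 of 24 pairs. Differently numbered pairs ran from -0.28 to 0.24. Replicate 1 of the treated groups (0.32) and of the untreated groups (0.27), Cre with floxed, lay above all of those. With few pairs over 0.1 the numbers were not taken to pair the samples, and the labels do not say whether they do. For the 41 nuclear members, however, replicate 1 lay below its group mean in every group (median log2 deviation -0.17 in treated and -0.30 in untreated Cre hearts, -0.20 in treated and -0.22 in untreated floxed hearts), replicate 2 above it in both Cre groups (0.31 treated, 0.18 untreated) and replicate 4 above it in both floxed groups (0.38 treated, 0.39 untreated). With the replicate number as a block, 5 members rose in floxed hearts, 10 averaged over genotypes, and 1 passed for genotype averaged over succinate. Over all tested genes 1903, 2826 and 298 were called in these comparisons, in either direction. Levels of Cox6b2 and Cox7b2 are limited by depth.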

Other observations

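Complexes I and II, which feed electrons into ubiquinone upstream of complex III, were counted the same way. Averaged over genotypes, 10 of 62 tested genes of a list of their subunits and complex I assembly factors rose with succinate and none fell, with a median log2 fold change of 0.11, where 10.6% of all tested genes rose and 8.45% fell. Of 12 tested regulators of respiratory gene transcription 2 fell and none rose, with a median of -0.08. Perm1, a striated muscle regulator of oxidative genes, had a log2 fold change of -0.30 ± 0.09 (SE, adjusted p = 0.0284) and also fell in floxed hearts alone (-0.40 ± 0.13, adjusted p = 0.0493). Pprc1, a relative of the coactivator PGC-1 alpha, had -0.37 ± 0.12 (SE, adjusted p = 0.0388). Ppargc1a, which encodes PGC-1 alpha, had 0.11 ± 0.17 (adjusted p = 0.688), Nrf1 -0.08 ± 0.06 (adjusted p = 0.391), Gabpa 0.14 ± 0.06 (adjusted p = 0.115) and Esrra -0.04 ± 0.06 (adjusted p = 0.639).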
